A study of Mus musculus with 2 samples.

Results

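The Notch pathway was followed through 10 genes in single cells of the embryonic mouse dorsal telencephalon: the ligand genes Dll1, Dll3 and Jag1, the receptor genes Notch1, Notch2 and Notch3, and the transcription factor genes Hes1, Hes5, Hey1 and Hes6. They were taken by symbol from the 32285 genes of the tables, and each symbol matched 1 row. The 2 libraries, WT replicate 1 and WT replicate 6, come from wild-type (WT) embryos at embryonic day 16.5, made by droplet-based 10x Genomics sequencing of mRNA 3′ ends with unique molecular identifiers (UMIs). They serve as controls for a conditional deletion of Dot1l with Emx1-Cre, a Cre driven in the dorsal telencephalon, which is not analysed here. The labels do not state the strain, the litter or whether the controls carry floxed alleles or Cre. No comparison between genotypes was made, and every comparison is between cell classes of the same 2 libraries.

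In Notch signalling, a ligand of the Delta or Jagged family on one cell activates a Notch receptor on its neighbour. The receptor is cut by ADAM proteases and γ-secretase, and its freed intracellular domain joins RBPJ in the nucleus and activates genes such as Hes1, Hes5 and Hey1, which encode transcriptional repressors. In the developing cortex this keeps radial glial cells (RGCs), the neural stem cells, undifferentiated, because HES proteins repress the proneural genes that drive neurogenesis and Delta ligand expression. In blood vessels, Notch signals between endothelial cells and the mural cells around them shape arteries and pericytes. Hes6 differs from the other Hes genes, as its product antagonizes HES1 and its expression accompanies neurogenesis.

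The short promoter stretches with motifs of known Notch and proneural factors are shown first, because the Notch target Hes5 holds the RBPJ motif at its start. Promoter sequences of RefSeq (build GRCm38.p6, which is the mm10 build of the files) matched 8 of the 10 genes with 10 annotated starts. No entry was matched for Hes1 and Hey1. The 250 bases before each start were searched on both strands for GTGGGAA, a core of the RBPJ site, and for CAGCTG and CAGATG, E-box forms bound by proneural proteins. None of these motifs overlapped another. GTGGGAA occurred at 1 of the 10 starts, that of Hes5, and in 5.415% of all 32851 promoters. CAGCTG occurred at 5 starts, of Dll1, Dll3, Jag1 and both starts of Hes6, and in 13% of all promoters. CAGATG occurred at 0 of the 10 starts and in 14.4% of all promoters. The windows, with the motif in capitals, read 5′ to 3′ on the strand of the gene:
Hes5, first match: gggcgagcgcgTTCCCACagcccggacat
Hes5, second match: ggccgccgagtGTGGGAAcggccgcggcg
Hes6, first start: ggaagcggctgCAGCTGccaactgtcac
Hes6, second start: ctccgccccgcCAGCTGccagagacccg
Dll1: gcattaccataCAGCTGagcgcacaaag
Dll3: ccggcatccagCAGCTGc
Jag1: cgcgtttcatgCAGCTGatctgaaaggg

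The Hes5 windows lie on the plus strand at chr4:154960686-154960714 and chr4:154960829-154960857, where the motifs begin 226 and 83 bases before the start. The first of them is on the opposite strand. The Hes6 windows are on the minus strand at chr1:91414193-91414220 and chr1:91413356-91413383, the latter inside the annotated gene because it precedes a second, internal start. The windows of Dll1 (chr17:15377048-15377075), Dll3 (chr7:28301786-28301803) and Jag1 (chr2:137116586-137116613) are also on the minus strand, with motifs beginning 132, 7 and 82 bases before the start. The Hes5 gene spans chr4:154960626-154962372 in the same annotation, so both of its windows also fall within the span of the longest annotated model. A match is only a description of these letters. The other genes lie at chr2:26457902-26503822 (Notch1), chr3:98013538-98150367 (Notch2), chr17:32120820-32166896 (Notch3), chr16:30065357-30067796 (Hes1) and chr3:8663359-8667038 (Hey1).

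WT replicate 1 held 14136 cells with 74930397 UMIs and WT replicate 6 held 13046 cells with 68964234 UMIs. A cell was kept at 1500 to 60000 UMIs if its mitochondrial share was under 10%, which left 8139 and 8209 cells, of which 4059 and 4431 passed 1 marker gate. Gates used marker genes and none of the 10 genes. An RGC had to show 5 of 11 core radial markers, a UMI of Pax6, Emx1 or Emx2 and none of Eomes, and an IPC 2 Eomes UMIs and 2 of 4 further markers. Newborn excitatory neurons showed 4 of 6 markers with Neurod1 among them, other excitatory neurons 5 of 10, GABAergic neurons 5 of 10, endothelial and mural cells 4 of 9 each. Eminence progenitors showed 2 of 8 subpallial markers, no Eomes or Emx1 and 3 cycling or 3 core radial markers. Upper limits were also set. Other excitatory neurons could show no UMI of Neurod1 or Eomes, so newborn and other excitatory neurons differ in Neurod1 by construction. IPCs could show at most 2 of a glial subset of 6 core radial markers, and each neuron class at most 2 of the 11. RGCs, IPCs and excitatory neurons could show at most 1 GABAergic marker. Classes thus differ in radial markers by construction, and the part of this in the differences between classes was not tested. Each library gave 212 to 221 RGCs, 277 to 334 intermediate progenitor cells (IPCs, the neurogenic daughters of RGCs), 491 to 501 newborn and 1188 to 1465 other excitatory neurons, 415 to 443 progenitors of the ganglionic eminences, 924 to 955 GABAergic neurons, 78 to 102 endothelial and 115 to 118 mural cells. Gate markers are high in their own classes largely by construction. Eomes stood at 601 and 611 CPM (UMI counts per 1000000) in IPCs and at 0 in RGCs, where its absence was part of the gate. The ungated RGC marker Fabp7 stood at 9084 and 11348 in RGCs against 364 and 405 in IPCs. No ungated marker is given for the neuronal, eminence and vascular classes. Of gate markers, Dlx1 stood at 529 and 530 in eminence progenitors, Cldn5 at 3506 and 3844 in endothelial cells and Kcnj8 at 506 and 546 in mural cells. Dlx1 is on the lists of both eminence progenitors and GABAergic neurons. The 10 GABAergic neuron markers summed to 3110 and 2954 CPM in eminence progenitors against 3344 and 3883 in GABAergic neurons. The labels give the tissue as brain hemispheres and their extract protocol the dorsal telencephalon, and eminence progenitors and GABAergic neurons belong by their markers to the ventral telencephalon or descend from it. Of 16348 kept cells, 8490 were gated, 38 passed several gates and 26 barcodes occurred in both libraries. All levels are over the UMIs summed in a class of a library and are given for WT replicate 1 first. Because depth differed between classes, shares of cells with a UMI were taken after thinning each cell to 2000 UMIs. Erythroid cells and microglia were carried along as classes in which these UMIs may come from free RNA. Their CPM are only a rough guide to it. Erythroid markers, mostly globin genes, made up 79.3% and 83.8% of the UMIs of erythroid cells. Doublet scores marked 77 of 90 and 51 of 99 microglia.

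**Figure D1:**
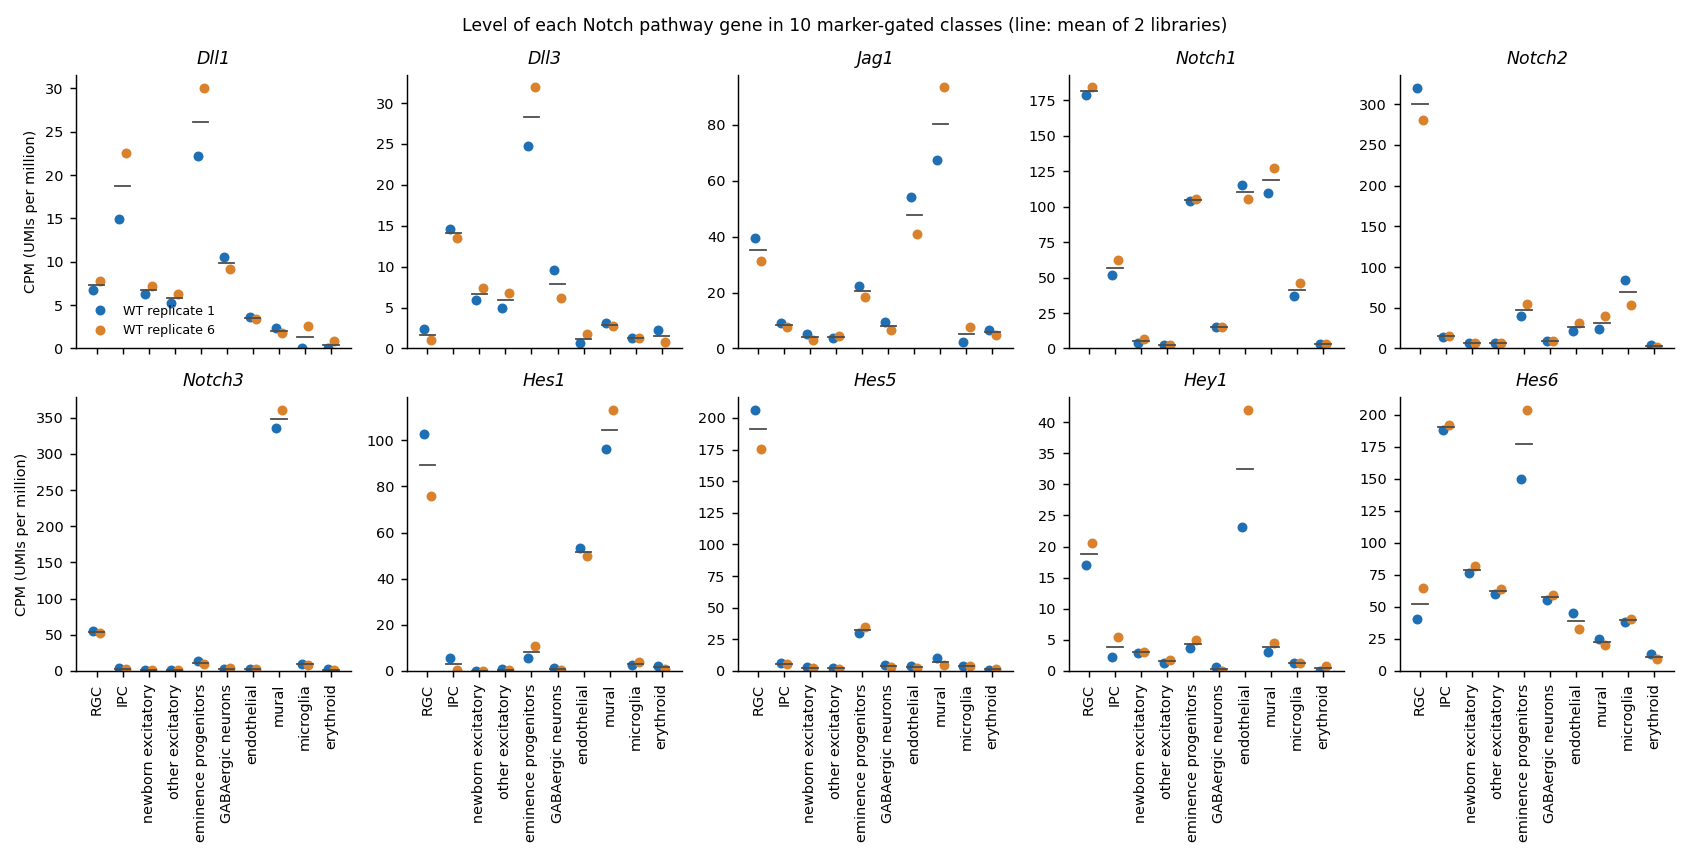
CPM (vertical axis, 1 scale per gene) of the 10 genes in 10 cell classes, with 1 point for each library and a line at the mean of the 2. Notch2 and Hes5 stand highest in RGCs, Notch3 in mural cells, Hey1 in endothelial cells, and Hes6 in IPCs and eminence progenitors.

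Delta ligand genes were highest in neurogenic progenitors. Dll1, whose product activates Notch on neighbouring cells, stood at 15.0 and 22.6 CPM in IPCs and at 22.2 and 30.1 in eminence progenitors, ranges that overlapped. It stood at 6.79 and 7.82 in RGCs and at 5.26 to 7.20 in both excitatory classes, and those classes overlapped each other. Dll3, a divergent Delta that does not activate Notch on other cells, stood at 14.6 and 13.6 in IPCs and at 24.7 and 31.9 in eminence progenitors. In RGCs it gave only 5 and 2 UMIs, or 2.43 and 0.978 CPM, and this level may be background. It lies close to the 2.22 and 0.816 of erythroid cells, which rest on 2 and 1 UMIs. Jag1, a Jagged ligand of stem cell and vascular niches, followed another order. It was highest in mural cells at 67.4 and 93.3, then in endothelial cells at 54.2 and 41.1, RGCs at 39.3 and 31.3 and eminence progenitors at 22.2 and 18.6. None of these 4 ranges overlapped. In newborn and other excitatory neurons Jag1 stood at 3.05 to 5.26, which overlaps the 6.66 and 4.90 of erythroid cells.

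Receptor genes were highest in RGCs and mural cells. Notch1 stood at 179 and 184 in RGCs, at 105 to 127 in endothelial and mural cells, which overlapped, at 104 and 105 in eminence progenitors, at 51.8 and 62.0 in IPCs and at 2.17 to 6.55 in excitatory neurons. Notch2 stood at 320 and 281 in RGCs and at 14.6 and 15.7 in IPCs. It also gave 84.6 and 53.6 in microglia, so that class cannot serve as its background, and 4.44 and 1.63 in erythroid cells. Notch3, the receptor of vascular mural cells, stood at 335 and 361 in mural cells, at 55.3 and 52.8 in RGCs and at 13.8 and 9.68 in eminence progenitors. In endothelial cells it gave 3 UMIs in each library, or 2.17 and 2.57 CPM, against 9.81 and 8.94 in microglia. After thinning, 48.7% of mural cells of WT replicate 1 and 51.3% of those of WT replicate 6 held a Notch3 UMI (95% Wilson intervals 39.8 to 57.7 and 42.2 to 60.3), and 0% of 100 and 77 endothelial cells did, where 3 cells would be 3% and 3.90% and the Wilson intervals reach 3.70% and 4.75%. Without thinning the shares were 88.1% and 86.1% of mural and 2.94% and 3.85% of endothelial cells. These bounds cover counting error only and concern cells with a UMI.

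The repressor genes parted from one another. Hes5 stood at 206 and 176 in RGCs, at 30.1 and 34.8 in eminence progenitors and at 10.1 or less in every other compared class. Hes1 was shared between RGCs (103 and 75.8) and mural cells (96.1 and 113), whose ranges overlapped, with 53.4 and 49.6 in endothelial cells. In newborn excitatory neurons Hes1 gave 0 UMIs in both libraries, where 3 UMIs would be 0.631 and 0.655 CPM. Hey1 was highest in endothelial cells at 23.1 and 41.9 and next in RGCs at 17.0 and 20.5. Hes6 stood at 188 and 192 in IPCs and at 150 and 204 in eminence progenitors, which overlapped, and then fell to 76.2 and 81.8 in newborn excitatory neurons. It was broad, with 38.0 and 40.9 in microglia and 13.3 and 8.98 in erythroid cells. For Hes5, shares of cells gave the same picture. It had a UMI in 26.7% and 28.9% of thinned RGCs (unthinned 59.0% and 60.6%) and in 0.722% and 0.599% of thinned IPCs, and in 0% and 0.474% of thinned erythroid cells. Thinned shares of Hey1 overlapped, at 4% and 10.4% in endothelial cells and 3.33% and 5.05% in RGCs. Those of Hes6 did not, at 31.0% and 33.2% in IPCs and 20.6% and 25.4% in eminence progenitors. Median depth was 9568 and 8888 UMIs in RGCs, 9707 and 9172 in IPCs and 3023 and 3707 in erythroid cells before thinning.

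The first step of cortical neurogenesis, from RGC to IPC, divided the 10 genes, though not by role alone. All 3 receptor genes, Jag1 and the targets Hes1, Hes5 and Hey1 were higher in RGCs, while Dll1, Dll3 and Hes6 were higher in IPCs. All 10 of 10 passed the test (edgeR quasi-likelihood, adjusted p below 0.05), 7 higher and 3 lower in RGCs, where 44.5% of the 11993 genes tested passed, and the median log2 difference was 2.09 for the 10 genes and -0.01 for all genes. Hes5 differed most, by 4.99 on the log2 scale (SE 0.175, adjusted p = 1.35e-08). Hes1 differed by 4.80 (SE 0.406, adjusted p = 4.75e-06) with an uneven base, since 17 of the 19 Hes1 UMIs of IPCs came from WT replicate 1, and the difference was 4.14 in that library alone and 6.59 in the other. Among receptors, Notch2 differed by 4.24 (SE 0.139) and Notch3 by 4.01 (SE 0.253), and Notch1, which IPCs retained at 51.8 and 62.0, by 1.60 (SE 0.119, adjusted p = 1.71e-06). Receptor differences thus spanned 1.60 to 4.24 in the same pair of classes. Jag1 differed by 2.0 (SE 0.236) and Hey1 by 2.17 (SE 0.364), or 2.77 and 1.89 within the libraries.

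In the other direction, Hes6 was lower in RGCs by 1.92 (log2 difference -1.92, SE 0.166, adjusted p = 5.74e-06), Dll1 by 1.43 (log2 difference -1.43, SE 0.307, adjusted p = 0.00335) and Dll3 by 3.08 (log2 difference -3.08, SE 0.435). For Dll3, 7 UMIs in RGCs against 89 in IPCs make an 8.25-fold ratio with a 95% exact interval of 3.84 to 21.1. Intervals of such ratios pool the UMIs of both libraries, cover counting error only and leave out the spread between libraries. Within the libraries the Dll3 log2 difference was -2.50 and -3.56. Among cells without any UMI of 8 cycling markers, the Dll1 difference was -0.73 and no longer passed (adjusted p = 0.285), and Dll3 had too few UMIs to be tested. Of 43 other pathway genes, 34 were tested, with 9 higher and 10 lower in RGCs, a share of 55.9% against 44.5% of 11993 genes. The glycosyltransferase gene Lfng, whose enzyme modifies Notch, gave 131 UMIs in RGCs and 1 in IPCs, a 202-fold ratio with a wide exact interval of 35.6 to 8036. Its relative Mfng went the opposite way, with 122 and 120 CPM in IPCs against 7.76 and 1.96 in RGCs (log2 difference -4.68). Id4, a helix-loop-helix inhibitor gene, was higher in RGCs (log2 difference 3.54), and Maml3, a co-activator of the nuclear Notch complex, lower (-1.82).

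**Figure D2:**
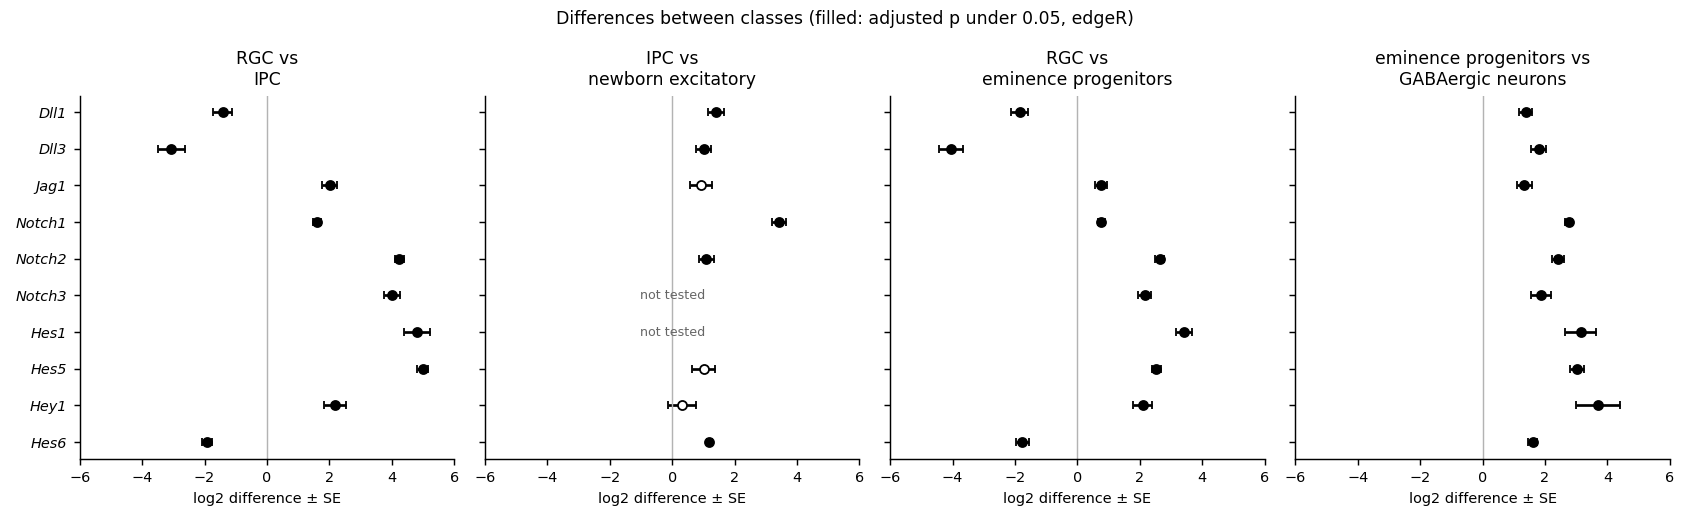
Log2 difference (horizontal axis, with its standard error) of each gene in 4 comparisons, from edgeR on sums of 2 libraries per class. Filled points passed the test; in RGCs against IPCs and against eminence progenitors the same 7 genes lie right of 0 and Dll1, Dll3 and Hes6 left of it.

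From IPCs to newborn excitatory neurons, the remaining receptor and Delta transcripts dropped. Of 8 genes tested, 5 were higher in IPCs and 0 lower, against 37.6% of 12403 genes passing in either direction. Notch1 had the largest difference of them, 3.42 (SE 0.215, adjusted p = 6.39e-07), with 3.58 and 6.55 CPM left in newborn neurons. Notch2 differed by 1.09 (SE 0.233), Hes6 by 1.19 (SE 0.0808), Dll1 by 1.41 (SE 0.256) and Dll3 by 1.01 (SE 0.245, adjusted p = 0.00773). The Dll3 call was lost with DESeq2 (adjusted p = 0.0792), with a stricter gate (0.0535) and without cycling cells (0.243). Jag1 (0.93, adjusted p = 0.0547) and Hes5 (1.01, adjusted p = 0.0552) did not pass, but both passed with the library as a block (adjusted p = 0.013 and 0.03). Hey1 differed by 0.31 (SE 0.442). Notch3 and Hes1 had too few UMIs to be tested, and all 19 Hes1 UMIs of the pair lay in IPCs. Of the other pathway genes tested, 7 of 35 were higher in IPCs and 5 lower: the Notch feedback gene Nrarp (2.67) and Mfng (2.12) differed most upwards, and the ubiquitin ligase gene Dtx4 (-1.44) and the ligand gene Jag2 (-1.29) downwards.

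Among excitatory neurons, little was left to separate. Newborn neurons had more Hes6 than the other excitatory neurons, 76.2 and 81.8 against 60.2 and 64.0 (log2 difference 0.32, SE 0.0784, adjusted p = 0.0278). It was the only 1 of 9 genes tested to pass, where 15.3% of 13654 genes did, and it did not pass with DESeq2 (adjusted p = 0.164) or with all classes in 1 fit (0.282). Notch1 differed by 1.14 (SE 0.345, adjusted p = 0.0615), and passed with the library as a block (adjusted p = 0.0132). It stood at 3.58 and 6.55 CPM in newborn and at 2.32 and 2.17 in other excitatory neurons. The 3.33 and 3.26 of erythroid cells rest on 3 and 4 UMIs, and the part of background in the Notch1 difference was not tested. Dll1 (0.19), Dll3 (0.14), Hes5 (0.25), Hey1 (0.88), Jag1 (-0.01), Notch2 (-0.04) and Notch3 (-0.20) did not pass, and Hes1 was not tested. Of 36 other pathway genes, 5 were higher and 5 lower in newborn neurons, led by Mfng (1.96) and Maml3 (1.37) and by Dtx4 (-2.03) and the ubiquitin ligase gene Neurl1b (-1.01).

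The ventral counterpart was described next. Eminence progenitors had less of the 3 receptors, Jag1, Hes1, Hes5 and Hey1 than cortical RGCs and more of Dll1, Dll3 and Hes6, and all 10 passed, against 39.3% of 12323 genes. Notch2 differed by 2.63 (SE 0.157, adjusted p = 1.06e-06), Hes1 by 3.42 (SE 0.262), Hes5 by 2.53 (SE 0.143), Notch3 by 2.16 (SE 0.202) and Hey1 by 2.10 (SE 0.303). Notch1 (0.77, SE 0.111) and Jag1 (0.76, SE 0.199, adjusted p = 0.012) differed least. The Jag1 call was lost with DESeq2 (adjusted p = 0.096) and without cycling cells (0.503). Dll3 was lower in RGCs by 4.04 (log2 difference -4.04, SE 0.384), with 7 UMIs against 231, a 16.4-fold ratio with an exact interval of 7.86 to 41.4. Within the libraries the Dll3 value was -3.27 and -4.80, and that of Hes1 4.15 and 2.77. Dll1 was lower by 1.85 (log2 difference -1.85, SE 0.273), a call lost without cycling cells (adjusted p = 0.112), and Hes6 by 1.77 (log2 difference -1.77, SE 0.206).

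The eminence gate admits cells by cycling or by radial markers, so it pools neurogenic and radial cells. Only 104 and 86 of its cells held at least 5 of 11 RGC core markers. In these, Hes5 stood at 71.0 and 88.8 CPM, against 12.1 and 12.6 in the remaining eminence progenitors and 206 and 176 in RGCs. Notch2 stood at 73.9 and 106, Notch3 at 28.8 and 19.7, Hes1 at 8.87 and 20.6 and Notch1 at 140 and 147. The subset still held less RGC marker RNA, with 13 RGC markers summing to 5096 and 7557 CPM against 17784 and 19402 in RGCs. In a comparison added after the data were seen, RGCs against this subset, Hes1 (2.65), Notch2 (1.76), Hes5 (1.27), Hey1 (1.28), Notch3 (1.14), Dll1, Dll3 and Hes6 still passed, against 20.1% of 11156 genes. Notch1 (0.34, adjusted p = 0.0899) and Jag1 (0.37, adjusted p = 0.303) did not, and Dll1 stayed at 25.1 and 31.4 CPM in this subset. Of 36 other pathway genes, 10 were higher and 8 lower in RGCs than in all eminence progenitors, a share of 50% against 39.3% of 12323 genes. They were led by the target gene Hey2 (2.73) and Lfng (2.02), which stood at 32.5 and 31.3 in RGCs and at 6.79 and 8.63 in eminence progenitors, and by Mfng (-3.58) and Maml3 (-1.58).

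**Figure D3:**
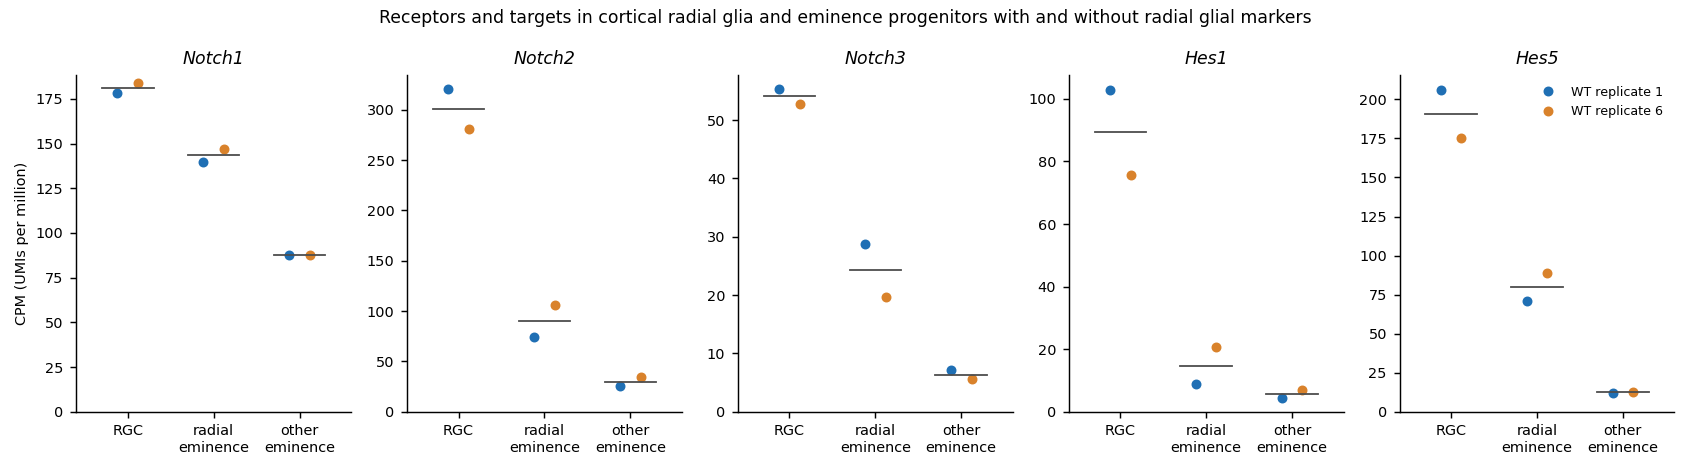
CPM of 3 receptor and 2 target genes in cortical RGCs and in eminence progenitors with at least 5 of 11 RGC core markers (radial) or fewer (other), with 1 point per library and a line at their mean. The radial subset lies between the other groups for each gene, and for Hes1, at 8.87 and 20.6, it stays below the 103 and 75.8 of RGCs.

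From eminence progenitors to GABAergic neurons, all 10 genes fell, against 49.4% of 13262 genes that passed in either direction. Notch1 stood at 104 and 105 CPM in progenitors and at 15.1 and 15.4 in neurons (log2 difference 2.76, SE 0.118, adjusted p = 1.68e-07). Hes5 differed by 3.03 (SE 0.229), Hes1 by 3.14 (SE 0.511), Notch2 by 2.41 (SE 0.197), Notch3 by 1.86 (SE 0.320), Hes6 by 1.61 (SE 0.144), Jag1 by 1.34 (SE 0.24) and Dll1 by 1.38 (SE 0.214). Dll3 differed by 1.80 (SE 0.242), 1.35 and 2.34 within the libraries, and lost its call without cycling cells (adjusted p = 0.205). Hey1 gave 35 UMIs against 3, a 14.1-fold ratio with an exact interval of 4.45 to 71.7. The 3 UMIs all came from WT replicate 1, and the log2 difference was 2.48 there and 5.43 in WT replicate 6. The few Hes1 UMIs, 67 against 9, make a 9.01-fold ratio (exact interval 4.47 to 20.5), with log2 differences of 2.22 and 3.87 within the libraries. The neuron gate admits only cells with fewer than 3 of 8 cycling markers, so the classes differ in cycling cells by construction. Of 37 other pathway genes, 10 fell and 11 rose towards neurons. Nrarp (3.6) and Lfng (2.76) fell most, and the neuralized gene Neurl1a (-2.31) and Jag2 (-2.04) were lower in progenitors.

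Whether the step from progenitor to neuron is the same in both lineages was tested as a difference of differences, (IPCs minus all excitatory neurons) minus (eminence progenitors minus GABAergic neurons). Of the 10 genes, 3 passed, against 19.1% of 13860 genes. Notch1 fell more in the cortical lineage, from 51.8 and 62.0 to 2.69 and 3.34 CPM, than in the ventral lineage, from 104 and 105 to 15.1 and 15.4 (log2 1.45, SE 0.197, adjusted p = 0.000405). Notch2 fell less in the cortical lineage, from 14.6 and 15.7 to 7.26 and 6.33 against 40.3 and 55.2 to 8.87 and 8.79 (log2 -1.28, SE 0.280, adjusted p = 0.00812). The Hes5 difference was also smaller in the cortical lineage, from 5.98 and 5.42 to 2.82 and 1.88 against 30.1 and 34.8 to 4.53 and 3.22 (log2 -1.78, SE 0.4, adjusted p = 0.00944). Both neuron classes lie near the Hes5 level of microglia (3.68 and 3.83) and erythroid cells (1.11 and 1.63), and IPCs start little above it. Likewise Notch1 in excitatory neurons lies at the 3.33 and 3.26 of erythroid cells. The part of background in these differences was not tested. The 2 lineages are not matched in their progenitors, since the eminence class includes radial cells and the IPC gate does not. A fit with radial eminence progenitors alone keeps only the radial cells, so it cannot remove this mismatch. Its values were 0.99 for Notch1, -2.19 for Notch2 and -3.07 for Hes5, all past the test, against 19.2% of 13724 genes. In the other eminence progenitors Notch1 stood at 87.8 and 87.9 CPM, Notch2 at 25.5 and 34.4 and Hes5 at 12.1 and 12.6. The difference between lineages was not tested with these cells. Hey1 (-2.79, adjusted p = 0.0603) rests on 3 UMIs in GABAergic neurons, and the block by library brought it past the test (adjusted p = 0.0329). Dll1 (0.24), Dll3 (-0.63), Jag1 (-0.35), Hes1 (-0.28), Notch3 (-0.94) and Hes6 (-0.12) did not pass. Of 38 other pathway genes 7 were positive and 4 negative, led by Maml3 (2.25) and Mfng (1.93) and by Dtx4 (-3.02) and Neurl1b (-2.58).

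Cycling state separated 2 of 8 genes tested in RGCs and 2 of 6 in IPCs. Progenitors with UMIs of at least 3 of 8 cycling markers (95 and 94 RGCs, 50 and 68 IPCs) were compared with those without any (62 and 71, 145 and 185). A deeper cell can show more markers, and the cycling cells were deeper, with medians of 10789 and 9771 UMIs against 8316 and 8137 in RGCs and of 13899 and 11459 against 9131 and 8734 in IPCs. In RGCs, Hes5 stood at 157 and 112 CPM in cycling and at 295 and 254 in non-cycling cells (log2 difference -1.01, SE 0.195, adjusted p = 0.00261). Notch3 stood at 40.9 and 33.0 against 88.5 and 67.4 (log2 difference -1.05, SE 0.265, adjusted p = 0.0178), a call lost with DESeq2 (adjusted p = 0.198). These were 2 of 8 genes tested, against 9.38% of 9062 genes. The 13 RGC markers summed to 15908 and 16861 in cycling against 23166 and 21775 in non-cycling RGCs, 2 of 13 being higher in cycling cells in both libraries, and the part of this in the Hes5 and Notch3 values was not tested. Hes1 (0.10), Notch1 (-0.08), Notch2 (0.05), Jag1 (0.19), Hes6 (0.14) and Hey1 (-0.55) did not pass, and Dll1 and Dll3 were not tested. Of 25 other pathway genes tested, 1 was higher and 1 lower. Neurl1b, which encodes a ubiquitin ligase of ligands, gave 35 UMIs in cycling and 2 in non-cycling RGCs, an 8.94-fold ratio (exact interval 2.30 to 76.7), and Dtx3 was lower (-0.99).

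In IPCs, Jag1 stood at 23.3 and 21.3 CPM in cycling cells, from 33 UMIs in all, and at 4.15 and 5.25 in non-cycling cells, from 15 (log2 difference 2.25, SE 0.413, adjusted p = 0.00219). Notch1 stood at 87.3 and 78.9 against 38.7 and 60.7 (log2 difference 0.77, SE 0.228, adjusted p = 0.0313), a difference of 1.16 and 0.38 within the libraries. The Notch1 call was lost with DESeq2 (adjusted p = 0.194) and with a stricter gate (0.207), which left Jag1 with too few UMIs to be tested. They were 2 of 6 genes tested, against 21.6% of 9688 genes. Notch2 (0.75), Dll1 (0.83), Dll3 (0.13) and Hes6 (0.14) did not pass. Of the 4 genes not tested, Hes1 gave 13 UMIs in cycling IPCs of WT replicate 1 and 0 in those of WT replicate 6, and 1 in non-cycling IPCs of each library. Hes5 gave 15 and 7 UMIs in cycling and 0 and 9 in non-cycling IPCs. The RGC markers summed to 1340 and 1472 in cycling against 1187 and 1324 in non-cycling IPCs, with 7 of 13 higher in both libraries, and their part in these values was not tested. Neurl1b again differed, with 18 UMIs against 2, a 19.1-fold ratio (exact interval 4.58 to 170), while 3 of 30 other pathway genes were lower, among them Mib2 (-1.67) and Dtx3 (-0.81).

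**Figure D4:**
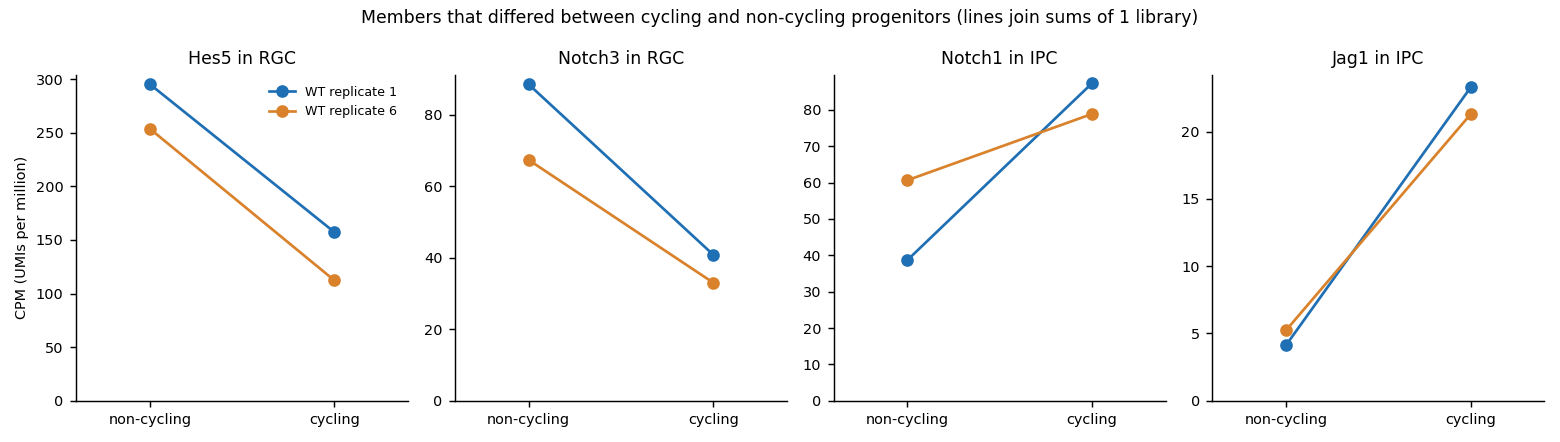
CPM of the 4 gene and class pairs that passed the test between non-cycling and cycling progenitors, with a line joining the sums of each library. Hes5 and Notch3 are lower in cycling RGCs, at 157 and 112 and at 40.9 and 33.0, and Notch1 and Jag1 are higher in cycling IPCs.

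Endothelial cells parted from RGCs most clearly in a pair of receptors and a target. Compared with RGCs, they had less Notch2 (20.9 and 31.7, log2 difference -3.42, SE 0.198, adjusted p = 3.31e-07), less Hes5 (4.33 and 2.57, -5.62, SE 0.265) and less Notch3 (-4.37, SE 0.335). For Hes5 this is 9 UMIs against 784, a 54.2-fold ratio (exact interval 28.4 to 119), and for Notch3 6 against 222, a 23.0-fold ratio (10.4 to 63.4). Of 9 genes tested, 6 passed, 1 higher and 5 lower, against 47.0% of 11784 genes. The other calls were small and less stable: Notch1 (-0.61, adjusted p = 0.00435), Hes1 (-0.68, adjusted p = 0.0143) and Hey1 (0.87, adjusted p = 0.0348). Doublet scores marked 40 of 102 and 44 of 78 endothelial cells, and the 13 RGC markers summed to 1317 and 1891 CPM there, whose part in these values was not tested. Without all marked cells the Notch1 difference was -0.27 (adjusted p = 0.173) and the Hes1 difference -0.31 (adjusted p = 0.269). The Hes1 call was lost in 5 of 9 alternatives, also with DESeq2, all classes in 1 fit, the stricter cell filter and the stricter gate (adjusted p from 0.00438 to 0.269). The Hey1 call was likewise lost in 5 of 9, with DESeq2, no TMM scaling, no filter on low counts, the stricter cell filter and no cycling RGCs (adjusted p from 0.00848 to 0.498), and the Hey1 difference was 0.44 and 1.02 within the libraries. Notch1 was lost in 2 of 9, the other being DESeq2 (adjusted p = 0.0538). Jag1 (0.55, adjusted p = 0.0678) did not pass, but did with the library as a block (adjusted p = 0.0362). Hes6 (-0.31) and Dll1 (-0.93) did not pass, and Dll3 was not tested. Endothelial cells instead held ligand transcripts with few or no UMIs in RGCs: Dll4 gave 120 UMIs against 0, at least 64.3-fold higher against a floor of 3 UMIs over both libraries, and Jag2 169 against 7 (log2 difference 5.32). Of 36 other pathway genes tested, 13 were higher and 9 lower, the latter led by Id4 (-4.38) and Hey2 (-1.65).

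Mural cells differed from endothelial cells in receptor and target genes. Notch3 gave 835 UMIs in mural cells and 6 in endothelial cells, a 148-fold ratio (exact interval 67.6 to 404; log2 difference 7.13, SE 0.231, adjusted p = 6.25e-07). Hes1 was higher in mural cells (0.99, SE 0.174, adjusted p = 0.00281), and Hey1 was lower, at 3.10 and 4.49 against 23.1 and 41.9 (-3.08, SE 0.470, adjusted p = 0.00131). These were 3 of 7 genes tested, against 25.9% of 10892 genes. Notch1 stood at 109 and 127 in mural and at 115 and 105 in endothelial cells (0.08, SE 0.154), and the ranges overlapped. Jag1 (0.72, adjusted p = 0.0536) and Hes6 (-0.80, adjusted p = 0.0656) did not pass, and both passed with the library as a block (adjusted p = 0.0155 and 0.0248). Notch2 (0.25) did not pass, but without cells marked as doublets, 77 of 233 mural and 84 of 180 endothelial cells, it differed by 1.66 (adjusted p = 0.0431). Of 38 other pathway genes, 8 were higher and 8 lower in mural cells. The ligand-like gene Dlk1 gave 1075 UMIs against 0, at least 380.4-fold higher, and the target gene Heyl 352 against 1, a 374-fold ratio (exact interval 66.6 to 14801). Lfng was lower, with 1 UMI against 43, a 40.5-fold ratio (6.89 to 1637), and so was Jag2, at 2.32 and 6.28 CPM (-3.97). The mural class also held fibroblast RNA. The 5 fibroblast markers summed to 366 and 368 CPM there, against 8.67 and 4.28 in endothelial cells. Their part in these values was not tested.

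**Figure D5:**
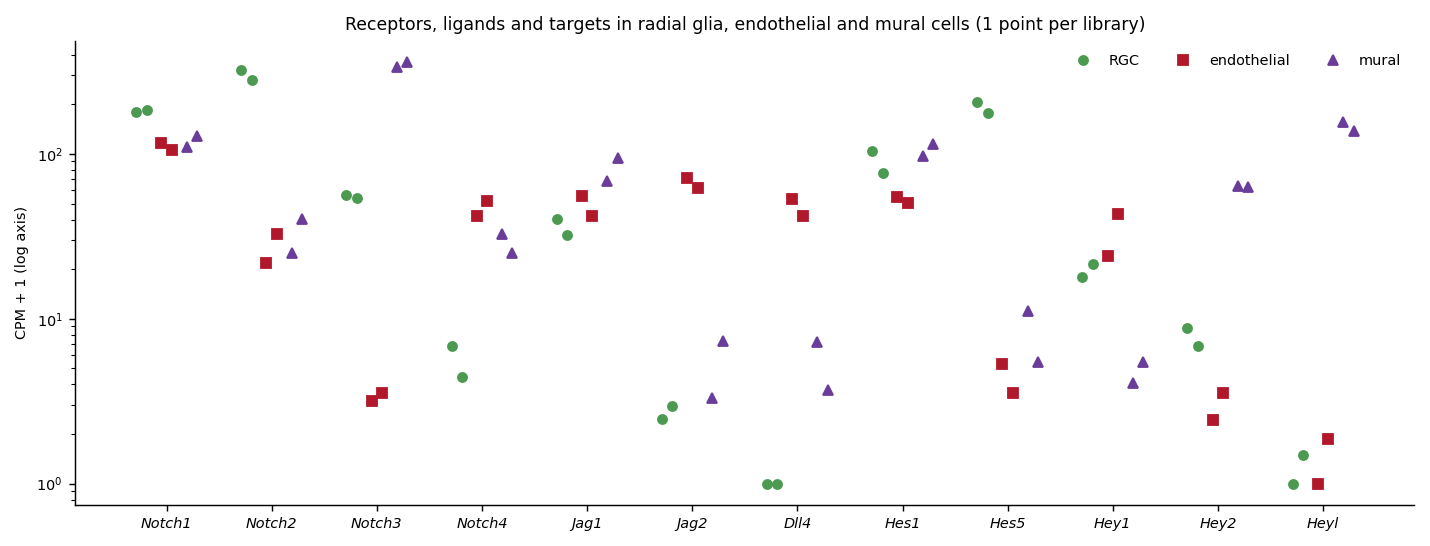
CPM plus 1, on a log axis, of 4 receptor, 3 ligand and 5 target genes in RGCs, endothelial and mural cells, with 1 point per library. Notch1 lies within 105 to 184 in all 3 classes, while Notch3 reaches 335 and 361 in mural cells and Dll4 lies at 0 in RGCs.

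The profiles across classes were also compared as a description over 16 sums, 8 classes in 2 libraries, on the scale of log2 of CPM with 5 added. The sums share libraries and were gated on markers, so no p is given. Among the 10 genes, Jag1 and Hes1 were correlated with a Pearson r of 0.947, Notch2 and Hes5 with 0.935, and Dll1 with Hes6 and Dll3 with 0.927 and 0.887. Of 6715 other genes with at least 50 CPM in a sum, those closest to Hes5 were Mlc1 (0.993) and the gate marker Mt3 (0.985). Those closest to Notch1 were Pard3b (0.981) and the gate marker Vim (0.976), to Notch2 Psat1 (0.978) and Arhgap5 (0.978), and Sept11 (0.988) was among those closest to Notch3. Hes1 was closest to Tcf7l1 (0.984) and Ssr3 (0.978), Hey1 to Colgalt2 (0.954) and Lxn (0.952), and Jag1 to Purb (0.985) and Wipf1 (0.981). For the genes of neurogenic progenitors, Dll1 was closest to Hnrnpab (0.937) and Ezh2 (0.937), Hes6 to Hnrnpab (0.956) and Cdk4 (0.920), and Dll3 to Sec63 (0.927) and Pum2 (0.922).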

How the data were processed

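Cells of the dorsal telencephalon of WT embryos at embryonic day 16.5 were dissociated and sequenced with the 10x Genomics 3′ version 3.1 chemistry, per the extract protocol in the labels, whose tissue field reads brain hemispheres. The authors counted reads with Cell Ranger 7.0.0 on mm10, and deposited, for every cell and gene, the UMI count without normalization. Whether intronic reads were counted is not given in the sources used here, so levels were compared within a gene only. The conditional knockout was not used here. The members and the lists of other genes were chosen with earlier results of these data known, and gate thresholds after marker levels were seen.

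Counts were summed per class and library and tested with edgeR 4.0.16 (quasi-likelihood F-test by glmQLFit and glmQLFTest) with TMM library scaling and the filterByExpr filter. Each fit held the classes under comparison, and p-values were adjusted by Benjamini-Hochberg across every gene in the fit. A result passed at an adjusted p below 0.05. With 2 libraries per class, p-values measure the spread between these libraries, which nothing in the labels ties to separate litters. The libraries differed beyond sampling noise (chi-square over genes of 17.2 per degree of freedom) and were treated as separate. The 2 libraries contribute to every class, so that classes are paired by library. Their deviations from class means correlated with r of 0.136 to 0.323, and a fit with a library block was an alternative. The test was checked on simulated data with a common dispersion for all genes and no pairing by library. Changes were set only in a random part of the well-counted genes, so genes with few UMIs are not covered. Of these changes, 97.2% of 4-fold and 76.3% of 2-fold ones were recovered in a simulation of RGCs against IPCs with 11161 genes. For mural against endothelial cells, with 10009 genes, the shares were 94.5% and 47.7%. Recovery of 2-fold changes was lowest for cycling against non-cycling RGCs (44.4%, 8482 genes), and the share of false calls was highest for newborn against other excitatory neurons (7.29%, 13351 genes).

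Alternatives were DESeq2 1.42.0, no TMM scaling, no filter on low counts, all classes in 1 fit, a stricter cell filter (3000 to 30000 UMIs, mitochondrial share under 5%), leaving out the 920 and 857 cells with the highest Scrublet-type doublet scores (a rate that rose with the number of cells), 1 more marker in each gate, no cycling progenitors, and each library alone. Doublets were kept otherwise. Ratios of summed counts have 95% exact binomial intervals, which pool both libraries and cover counting error only. Genes outside the 10 were named by rule: in each comparison the 2 called pathway genes with the largest rise and the 2 with the largest fall, the 2 genes with the highest Pearson r, and gate markers. Some genes that these rules select are not reported here.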

Additional observations from a re-analysis of the deposited data

Results flagged for a closer look

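The difference between progenitors and neurons was not the same in the cortical and the ventral lineage for 3 of the 10 genes, by a test of the difference of differences in edgeR. It was larger in the cortical lineage for Notch1, by 1.45 on the log2 scale, and smaller for Notch2 (log2 -1.28) and Hes5 (log2 -1.78). Each sign was the same in both libraries, with 1.46 and 1.42 for Notch1, -1.17 and -1.34 for Notch2, and -1.65 and -1.91 for Hes5, and each call was kept in all 10 tested alternatives, with adjusted p up to 0.0487 for Hes5. The alternative with radial eminence progenitors alone was added after the data were seen. The eminence class includes radial cells and the IPC gate does not. Hes5 stood at 71.0 and 88.8 CPM in radial and at 12.1 and 12.6 in other eminence progenitors. Notch2 stood at 73.9 and 106 against 25.5 and 34.4. The part of radial cells in the differences between lineages was not tested. Groups of 2 libraries are too small to look for a library that stands apart. Some of the levels compared were low. Hes5 in both neuron classes (2.82 and 1.88, and 4.53 and 3.22 CPM) lies near its level in microglia (3.68 and 3.83), and IPCs start at only 5.98 and 5.42. Notch1 in excitatory neurons (2.69 and 3.34) lies at the level of erythroid cells (3.33 and 3.26). The part of background in these differences was not tested.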

How the results depend on the processing

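Of 52 calls of a gene between classes, 40 were kept in every alternative that gave a value, and 12 were lost in at least 1, as given with the results. No called difference changed its direction in either library alone. The number of genes called moved by over 1.5 times in these cases. For newborn against other excitatory neurons it was 1 in the reported fit, 0 with DESeq2 (2 at an unadjusted p under 0.05) and 2 without TMM scaling, without a filter on low counts, with the library as a replicate block, with the stricter cell filter and with the stricter gate. For endothelial cells against RGCs DESeq2 called 3 in place of 6. For mural against endothelial cells 5 in place of 3 were called without a filter, with the block, with all classes in 1 fit and without doublets. For cycling RGCs DESeq2 called 1 in place of 2. For cycling IPCs it called 1, while 4 were called without a filter and with all classes in 1 fit and 0 by edgeR with the stricter gate (0 at an unadjusted p under 0.05). With radial eminence progenitors alone, chosen after seeing the data, 5 in place of 3 differed between lineages. The block by library added the calls given with the results, removed none and moved no other count of these calls by over 1.5 times. Some uncalled values changed sign, not all of them near 0. In newborn against other excitatory neurons these were Jag1, with 0.015 without TMM scaling, 0.082 with the stricter cell filter, 0.19 without doublets and 0.044 with the stricter gate, and Notch2 (0.12) and Hes5 (-0.0078) with the stricter gate. In cycling RGCs they were Hes6 (-0.0024, stricter cell filter), Notch1 (0.0072, no filter) and Notch2 (-0.017, stricter gate), and in cycling IPCs Dll3 (-0.0059, doublets left out). Between lineages they were Hes6 (0.19, no cycling cells) and Hes1 (1.09, stricter gate). Over all genes DESeq2 called 3359 in place of 5338 for RGCs against IPCs, 2835 in place of 4662 for IPCs against newborn neurons, 2966 in place of 4847 for RGCs against eminence progenitors 4358 in place of 6551 for eminence progenitors against GABAergic neurons, 1749 in place of 2823 for mural against endothelial cells, 1272 in place of 2086 for newborn against other excitatory neurons, 402 in place of 850 for cycling RGCs and 950 in place of 2088 for cycling IPCs, and the cause was not tested. The block called 3465 for newborn neurons and 1455 for cycling RGCs, and the stricter gate 1060 for cycling IPCs. Without cycling cells 3293, 1895 and 1563 genes passed for RGCs against IPCs, RGCs against eminence progenitors and eminence progenitors against GABAergic neurons, and 1339 in place of 2645 between lineages. With radial eminence progenitors 2240 passed against RGCs. In cycling RGCs, 506 genes were higher and 344 lower, against 299 and 103 with DESeq2. In cycling IPCs these were 1291 and 797, against 717 and 233 with DESeq2 and 1280 and 1275 with all classes in 1 fit. Leaving out cycling cells was not run where no progenitor class was compared.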
